A study of Mus musculus with 262 samples.

Results

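Fatty acid oxidation genes were followed as a list of 35 genes, chosen by symbol, through all 5 tables deposited for a study of mouse kidney. All 35 were found in every table, which held 47069 genes in the TPM tables (TPM is an abundance scaled for transcript length and to a fixed total per sample), 24111 in a count table and 29732 in an RPKM table. The 262 samples came from kidneys of 2-month-old male mice. The first kind was 235 single cells of C57BL/6 mice, captured in the chambers of a microfluidic chip after sorting with DBA, c-Kit, both, or PNA, and typed by the authors as 87 type A intercalated, 23 type B intercalated, 74 principal, 19 proximal tubule and 32 non-epithelial cells. The second kind was bulk RNA of sorted cells, with 2 c-Kit and 2 DBA samples of C57BL/6 mice, and 2 GFP-positive and 2 GFP-negative samples of a strain called Atp6v1b1GFP, named after a proton pump subunit gene of intercalated cells and sorted on GFP fluorescence. The third kind was single tubules of C57BL/6 mice dissected by hand, 11 collecting ducts of the cortex (CCD) and 8 thick ascending limbs of the cortex (cTAL). The labels name no treatment and do not say which samples came from separate animals, so p-values measure the spread between these samples only, which may be technical.

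Fatty acids are burned in mitochondria after activation to acyl-CoA by synthetases and transfer across the membranes as acylcarnitines. Each turn of beta-oxidation then runs through an acyl-CoA dehydrogenase, a hydratase, a hydroxyacyl-CoA dehydrogenase and a thiolase, and the electrons of the first step leave through the electron transfer flavoproteins. Peroxisomes shorten very long and branched chains with their own enzymes, and the nuclear receptor PPARA with the coactivator encoded by Ppargc1a raises transcription of many of these genes. The proximal tubule and the thick ascending limb are rich in mitochondria and use fatty acids as fuel.

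Upstream sequences are shown for 4 genes whose mitochondrial products carry neighbouring steps and whose levels are described below. Hadha and Hadhb encode the alpha and beta subunits of the trifunctional protein. They start on opposite strands next to each other, at 30154980 and 30155253 on chromosome 5 of GRCm38.p6, so that a single window lies upstream of both. Acadm encodes the medium-chain and Acadvl the very-long-chain acyl-CoA dehydrogenase. The 250 bases before each start, from RefSeq on GRCm38.p6, are printed 5′ to 3′ on the strand of the gene named, at chr5:30155003-30155252 (plus) for Hadhb, chr3:153944644-153944893 (minus) for Acadm and chr11:70015429-70015678 (minus) for Acadvl. Capitals mark GGGCGG, the GC box bound by SP factors, and AGGTCA, the core motif of many nuclear receptors, each read on both strands.
Hadhb: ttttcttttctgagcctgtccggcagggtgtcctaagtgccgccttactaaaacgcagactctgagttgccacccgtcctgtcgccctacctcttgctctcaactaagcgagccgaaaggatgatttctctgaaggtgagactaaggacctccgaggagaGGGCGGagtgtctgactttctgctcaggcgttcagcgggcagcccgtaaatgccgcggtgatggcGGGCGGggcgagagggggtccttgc
Acadm: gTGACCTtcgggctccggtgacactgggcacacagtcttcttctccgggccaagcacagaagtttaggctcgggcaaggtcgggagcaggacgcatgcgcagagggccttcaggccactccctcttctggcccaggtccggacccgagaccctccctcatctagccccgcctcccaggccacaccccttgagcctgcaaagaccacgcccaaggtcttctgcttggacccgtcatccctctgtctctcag
Acadvl: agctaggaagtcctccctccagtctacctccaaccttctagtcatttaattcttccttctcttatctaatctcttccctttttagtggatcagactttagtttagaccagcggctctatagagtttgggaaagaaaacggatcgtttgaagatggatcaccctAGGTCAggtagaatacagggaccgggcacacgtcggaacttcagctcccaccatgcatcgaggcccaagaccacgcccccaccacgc

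RefSeq promoters were matched for 31 of the 35 genes, in 33 windows. GGGCGG lay in 63.6% of these windows and in 32.7% of all 32851 promoters of the same length. AGGTCA lay in 15.2% of the windows, those of Acadm, Acadvl, Cat, Cpt1a and Echs1, and in 14.0% of all. CCAAT, searched the same way, lay in 42.4% and 33.8%. The spaced repeat AGGTCANAGGTCA, a site form for PPARA with its partner RXR, and TCAAGGTCA, a site form for estrogen-related receptors, contain that core and were found in none of the 33 windows, and in 0.0335% and 0.387% of all promoters. These matches describe letters in a window and no binding was measured.

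Depth was known for the GFP samples alone, at 35530885 to 40815091 reads in genes per sample, since TPM keeps no depth. In single cells the markers fixed for the epithelial types (10 for proximal tubule, 8 for principal, 4 each for type A and type B) all had their highest mean in the type they mark. Of the markers for non-epithelial cells, all 7 macrophage and immune markers had their highest mean there, but only 1 of 5 endothelial and stromal markers did. Among the 19 cells typed as proximal tubule, however, 8 had a larger sum of principal than of proximal tubule markers, so the main results on this type are also given for the other 11. The DBA samples had summed macrophage and immune markers of 13294 to 13951 TPM against 4703 to 4807 in the c-Kit samples. Summed proximal tubule markers were 24386 to 28603 CPM in the GFP-negative and 2855 to 4023 CPM in the GFP-positive samples. CPM are counts scaled to library totals that were adjusted between samples by TMM factors. The GFP-positive samples also held thick ascending limb markers, at 9882 to 14796 CPM against 8330 to 8641 CPM in the GFP-negative samples, so transcripts of that segment were present in both.

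Across the single-cell types, proximal tubule cells had the highest mean TPM of 16 of the 35 genes, type A intercalated cells of 9, type B of 7, principal cells of 2 (Echs1 and Hsd17b4) and non-epithelial cells of 1 (Acaa1a, a peroxisomal thiolase). Some of these ranks were near ties, such as Eci1 at 153.9 TPM in proximal tubule and 152.6 TPM in type B cells. Hadhb was at 192 TPM in type A and 190 TPM in principal cells. Over all 15403 genes whose mean reached 1 TPM in some type, 18.5% were highest in proximal tubule cells. Among the 11 proximal tubule cells with more proximal tubule than principal marker signal, 15 genes were highest. The means of the 35 genes summed to 4217 TPM in proximal tubule, 4037 in type B, 3879 in type A and 3268 in principal cells, and to 2055 TPM in non-epithelial cells. The median cell had 18 of the genes at 1 TPM or more in the proximal tubule type, 15 in type A, 14 in type B and principal, and 12 in non-epithelial cells, with medians of 3253, 2704, 2759, 2924 and 2862 genes of all kinds detected. No animal is named for any cell, so each type counts as 1 sample and no difference between types was tested.

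**Figure D1:**
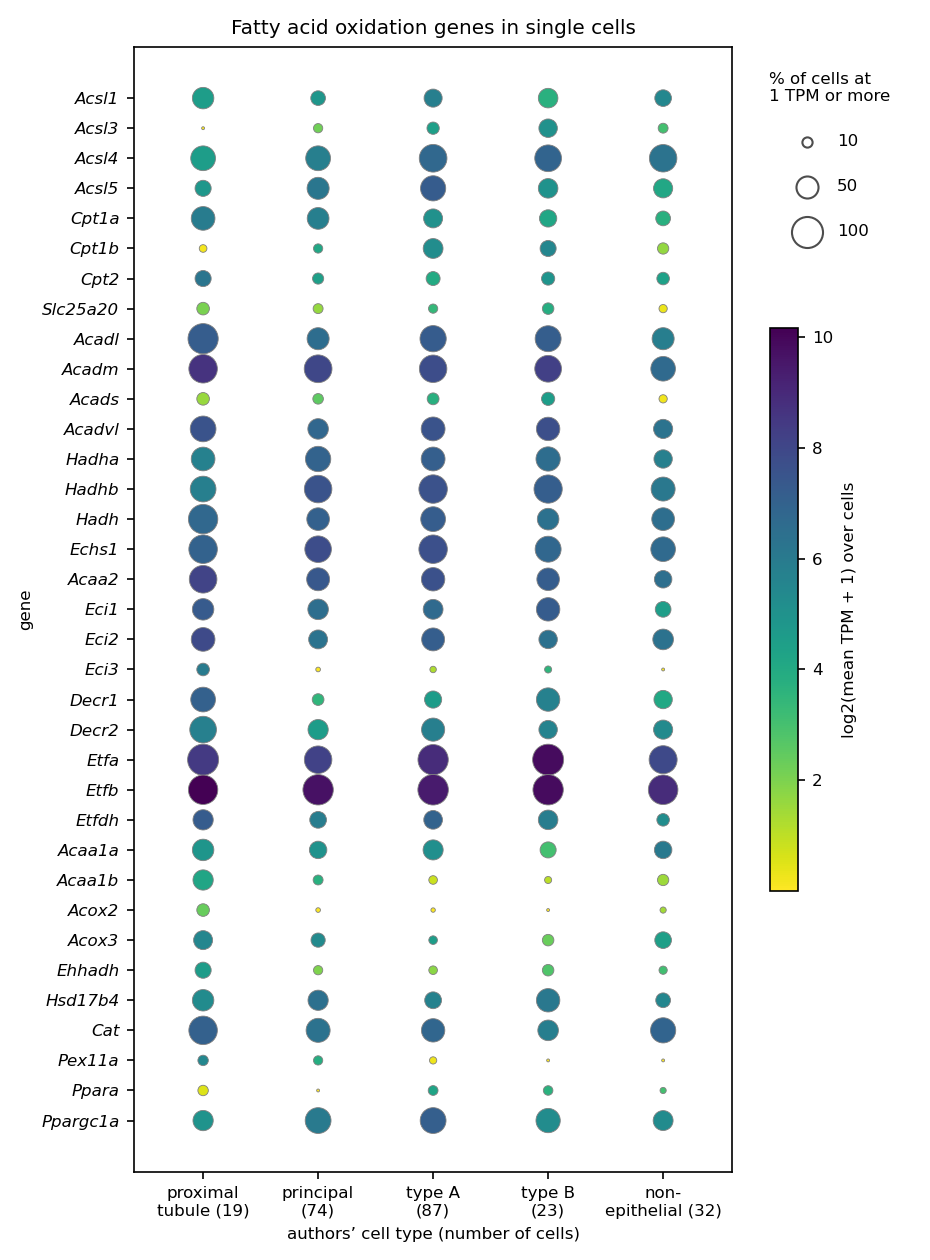
Mean level and detection of the 35 fatty acid oxidation genes in the 5 single-cell types. Rows are genes ordered by role, columns are the authors' types with their number of cells, colour is log2(mean TPM + 1), and circle area grows with the share of cells at 1 TPM or more; Etfa and Etfb are dark in every column, while Acox2, Eci3 and Pex11a have small circles in every column, at most 15.8% of cells.

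Etfb had the highest mean of the list in every single-cell type. Etfa came next, except in proximal tubule cells, where Acadm averaged 409 TPM. Etfb, the beta subunit of the flavoprotein that takes electrons from the dehydrogenases, averaged 1148 TPM in proximal tubule, 940 in type B, 841 in principal, 686 in type A and 486 TPM in non-epithelial cells. Etfa, its alpha subunit, averaged 938 TPM in type B cells, against 479 in type A, 344 in proximal tubule, 284 in principal and 242 TPM in non-epithelial cells. It was detected in 23 of 23 type B cells, whose median was 676 TPM, and in 58 of 74 principal cells, whose median was 117 TPM. Type B cells were thus highest for Etfa by the mean and by the median, and proximal tubule cells highest for Etfb by both. Etfdh, which passes the electrons on to ubiquinone, averaged 151 TPM in proximal tubule and 123 TPM in type A cells. Over the 11 proximal tubule cells with more proximal tubule than principal marker signal, Etfb averaged 1558, Etfa 282 and Etfdh 144 TPM.

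In the proximal tubule cells, 6 genes were past 2-fold above the highest collecting duct type, on the scale of mean TPM + 1: Cpt2, Eci3, Decr1, Acox2, Ehhadh and Pex11a. Over the 11 cells the same 6 and Acaa1b were past that fold, and 14 genes were past it in the other direction. They make up 6 of 35, where 11.5% of all 14473 genes compared were past 2-fold higher, and 13 of 35 were past 2-fold lower, where 59.8% of all were. Medians of the log2 ratio were -0.06 for the list and -1.39 for all genes. Decr1, the mitochondrial reductase for unsaturated chains, averaged 130 TPM in proximal tubule cells and 51.8, 23.3 and 10.5 TPM in type B, type A and principal cells. Over the 11 cells its mean was 138 TPM. It was detected in 12 of 19 proximal tubule cells (63.2%, exact Clopper-Pearson 95% interval 38.4% to 83.7%) and in 10 of 74 principal cells (13.5%, 6.68% to 23.5%). The others rested on few cells: Eci3 on 3, Acox2 on 3, Pex11a on 2, Ehhadh on 5 and Cpt2 on 5 of the 19. Single cells held most of the signal of 4 of these genes. For Pex11a 1 cell held 99.6% of the summed TPM, and without it the mean went from 43.4 to 0.17 TPM. For Acox2 it held 95.2% (4.11 to 0.21 TPM), for Eci3, a peroxisomal isomerase, 92.0% (62.2 to 5.28 TPM), and for Cpt2 67.0% (74.1 to 25.8 TPM, under the 29.3 TPM of all type B cells). Without the highest cell of each type, 4 genes were past 2-fold (Eci3, Decr1, Acaa1b and Ehhadh), and by medians over cells 5 were, none of them among the 6: Acadl, Acadm, Acaa2, Eci2 and Cat. Eci2 averaged 237 TPM over all 19 cells but 19.7 TPM over the 11, where it was among the 14 genes past 2-fold lower. Acadm was detected in 16 of 19 proximal tubule cells at a mean of 409 TPM (496 TPM over the 11 cells), against 305 in type B, 254 in principal and 220 TPM in type A cells.

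Type A intercalated cells were past 2-fold above principal cells for 11 of the genes: Acsl3, Acsl5, Cpt1b, Slc25a20, Acads, Eci3, Decr1, Decr2, Etfdh, Ppara and Ppargc1a. Over 13204 genes 22.0% were past that fold, and the median log2 ratio was 0.61 for the list and -0.21 for all genes. Which genes passed depended on the summary. By medians over cells 9 did, of the 11 only Acsl5 and Decr2. By means of log2(TPM + 1) 6 did, of the 11 only Acsl5, Cpt1b and Decr2. Without the highest cell of each type 13 did, and Eci3 was not among them. Principal cells were past 2-fold above type A for Acaa1b and Pex11a, where 30.6% of all genes were. A single principal cell held 89.3% of the Acaa1b signal, and without it the mean went from 12.3 to 1.33 TPM and was no longer past 2-fold. For Pex11a 1 cell held 84.3% (13.1 to 2.09 TPM). Acsl5, an acyl-CoA synthetase, had means of 150 TPM in type A and 70.7 TPM in principal cells, and 57 of 87 against 37 of 74 cells had it at 1 TPM or more. Ppargc1a averaged 139 and 63.0 TPM, and the share of cells with it was 69.0% and 68.9%, so the means differed while the shares of cells were close. Cpt1b, the muscle form of carnitine palmitoyltransferase 1, was detected in 35 of 87 type A cells (40.2%, 29.9% to 51.3%) and 6 of 74 principal cells (8.11%, 3.03% to 16.8%), with means of 36.0 and 16.5 TPM. Without the single highest principal cell, the principal mean of Cpt1b was 2.69 TPM.

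Type B cells were past 2-fold above type A cells for Eci3, Decr1 and Ehhadh, where 20.8% of 12344 genes were, and below for 7 genes, where 36.7% were. The 7 were Acsl1, Acsl5, Etfdh, Acaa1a, Acox3, Cat and Ppargc1a. Acsl5 averaged 31.4 TPM in type B against 150 TPM in type A cells, and Ppargc1a 36.9 against 139 TPM. Eci3 and Ehhadh rested on 1 and 3 of the 23 type B cells. Without the highest cell of each type, 1 of the 35 genes (Decr1) was past 2-fold above and 12 were below.

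In sorted bulk cells, 21 of 35 genes differed between c-Kit and DBA samples, with 18 higher and 3 lower in c-Kit (limma on log2(TPM + 1), adjusted p under 0.05). Of all 14341 genes tested 44.3% were called, 16.1% higher and 28.1% lower, and the median log2 difference was 0.27 for the list and -0.11 for all genes. After quantile normalization 21.3% of all genes were higher and 21.4% lower, and 19 and 3 of the list. c-Kit is a receptor carried by intercalated cells, and all 12 intercalated markers were higher in the c-Kit samples. DBA is a lectin that binds collecting duct cells, and all 8 principal cell markers were higher in the DBA samples, as were 6 of 7 macrophage and immune markers. Of 10 proximal tubule markers 5 were lower and 2 higher in c-Kit, with sums of 3959 to 3992 TPM in c-Kit and 4716 to 5630 TPM in DBA. The part of all these markers in the differences was not tested. The 4 synthetases and the 4 acyl-CoA dehydrogenases rose in c-Kit, while of the 8 genes listed as peroxisomal 7 were not called and Acox3 was lower. Eci2, Eci3 and Decr2, whose products are also found in peroxisomes, were listed with the isomerases and reductases. Of them Eci2 and Decr2 were higher in c-Kit. Groups did not overlap for 28 of the 35 genes, as for 73.9% of all genes tested.

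The carnitine step gave the largest difference of the list. Cpt1b was at 81.2 and 85.0 TPM in the c-Kit samples and at 4.27 and 5.41 TPM in the DBA samples, a log2 difference of 3.85 ± 0.12 (SE, adjusted p = 5.04e-06, limma). Cpt1a, the liver form of the same enzyme, went the other way, at 141 and 123 TPM in c-Kit and 159 and 158 TPM in DBA (-0.26 ± 0.08, adjusted p = 0.0345, limma). All 4 c-Kit and DBA samples thus carried Cpt1a above 100 TPM, and the DBA pair had Cpt1b under 6 TPM. Cpt2, which reverses the reaction inside the mitochondrion, was higher in c-Kit by 0.55 ± 0.08 on the log2 scale. The carrier gene Slc25a20 was not called, with a mean difference of 0.02 ± 0.08.

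Synthetases and dehydrogenases moved the same way in c-Kit samples. Acsl3 was at 69.9 and 63.1 TPM in c-Kit and 35.7 and 32.1 TPM in DBA (log2 difference 0.95 ± 0.09). Acsl4 was at 47.1 and 48.2 against 24.7 and 24.0 TPM (0.94 ± 0.08), and Acsl5 at 244 and 249 against 141 and 131 TPM (0.85 ± 0.06). All 3 synthetases lay in 1 range of difference, with adjusted p from limma of 0.000342, 0.000191 and 0.000108. Acsl1 was at 99.99 and 97.4 against 85.1 and 84.3 TPM (0.22 ± 0.06), and its call was lost without each of the 4 samples (adjusted p 0.0674 to 0.128, limma). Acadvl was at 471 and 478 against 281 and 256 TPM (0.82 ± 0.07, adjusted p = 0.000153, limma). Acadl, the long-chain dehydrogenase, rose by 0.68 ± 0.07 and Acads, the short-chain enzyme, by 0.44 ± 0.07. Acadm was at 361 and 380 against 309 and 299 TPM (0.29 ± 0.06, adjusted p = 0.00845, limma), without overlap.

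Etfa was at 898 and 1007 TPM in the c-Kit samples and 424 and 408 TPM in the DBA samples, a log2 difference of 1.19 ± 0.07 (adjusted p = 4.79e-05, limma). Etfb, its partner in the same heterodimer, was at 772 and 835 against 779 and 731 TPM and was not called. Etfa was thus above Etfb in both c-Kit samples and below it in both DBA samples. Hadha and Hadhb, whose shared upstream window is printed above, rose by 0.55 ± 0.06 and 0.78 ± 0.08, and Echs1, the short-chain enoyl-CoA hydratase, by 0.60 ± 0.05. Acaa2, the mitochondrial thiolase, fell by 0.41 ± 0.07, from 518 and 488 TPM in DBA to 394 and 364 TPM in c-Kit. Eci2, an isomerase for unsaturated chains, rose by 0.51 ± 0.06. Decr2, a peroxisomal reductase, was at 67.8 and 74.1 against 59.4 and 57.8 TPM (0.27 ± 0.08), Acox3, a branched-chain oxidase, at 56.5 and 58.6 against 69.5 and 76.6 TPM (-0.34 ± 0.08), and Eci3, not called, at 69.2 and 70.6 against 52.5 and 63.0 TPM (0.28 ± 0.10). The calls of Acadm, Acox3, Cpt1a and Decr2 were each lost without 1 or more of the samples, and the call of Eci3 was gained without DBA replicate 2 (adjusted p = 0.0412, limma). Ppargc1a rose by 0.66 ± 0.08, from 99.8 and 86.4 TPM to 151 and 144 TPM. Ppara was at 19.7 and 18.3 against 19.7 and 16.8 TPM and was not called.

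**Figure D2:**
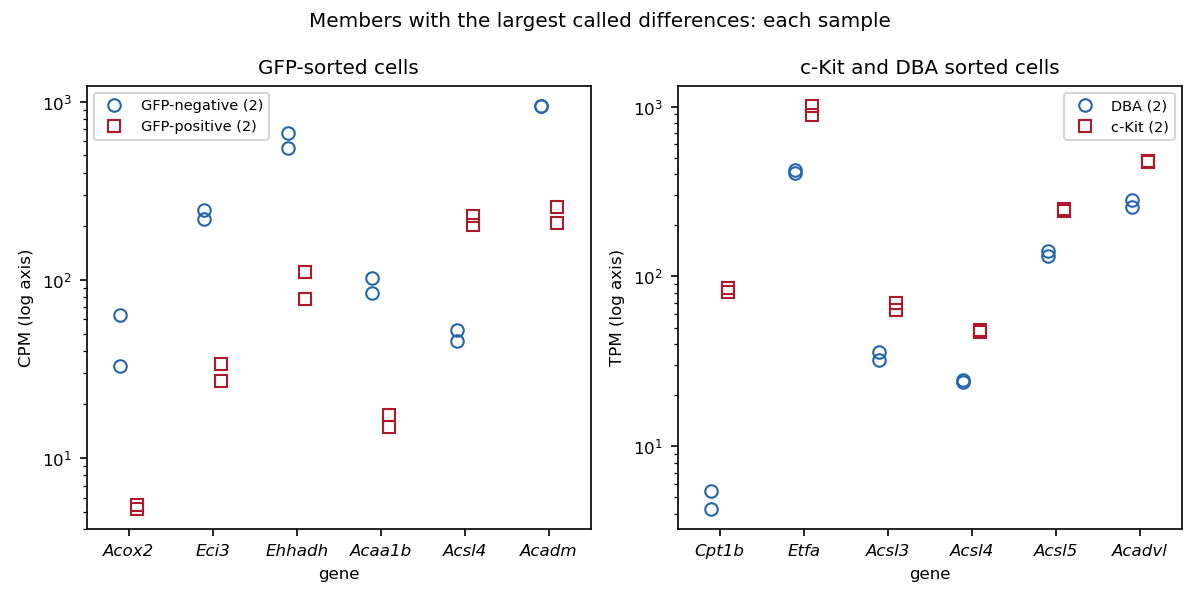
Values in each sorted bulk sample for the 6 members with the largest called differences in each comparison, on log axes; left, CPM in 2 GFP-negative (circles) and 2 GFP-positive samples (squares), right, TPM in 2 DBA (circles) and 2 c-Kit samples (squares). The groups are separate for all 12 gene and comparison pairs, Acsl4 is the 1 gene higher in GFP-positive samples on the left, and Cpt1b shows the widest gap on the right.

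GFP-positive cells differed from GFP-negative cells in 25 of the 35 genes, with 8 higher and 17 lower (edgeR quasi-likelihood test on counts, adjusted p under 0.05). Of all 15671 genes tested 32.6% were called, 15.2% higher and 17.3% lower, and the median log2 difference was -0.49 for the list and 0.02 for all genes. The 4 synthetases rose, 6 of the 8 genes listed as peroxisomal fell and the other two were not called, and Ppargc1a and Ppara went opposite ways. Groups did not overlap for 32 of the 35 genes, as for 70.2% of all genes. All 10 proximal tubule markers and all 7 macrophage and immune markers fell in the same comparison, with median log2 differences of -2.47 and -3.59. All 11 intercalated markers tested, 7 of 8 principal markers (median 2.15) and all 3 distal convoluted tubule markers (median 2.81, summed 746 to 1333 against 110 to 133 CPM) rose. The part of all these markers in the differences of the fatty acid oxidation genes was not tested. In bulk samples, fewer cells of a type and less RNA per cell cannot be told apart.

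The 4 largest falls were those of Acox2, Eci3, Ehhadh and Acaa1b, and the mitochondrial Acadm came next. Acox2, an oxidase for branched chains and bile acid intermediates, was at 33.0 and 63.5 CPM in the GFP-negative and 5.19 and 5.49 CPM in the GFP-positive samples (log2 difference -3.18 ± 0.34, adjusted p = 0.000218, edgeR). Eci3 was at 219 and 245 against 33.6 and 27.0 CPM (-2.94 ± 0.19, adjusted p = 4.68e-05, edgeR). Ehhadh, the peroxisomal bifunctional enzyme, was at 549 and 669 against 110 and 78.5 CPM (-2.69 ± 0.23, adjusted p = 8.40e-05, edgeR). Both GFP-negative samples were above both GFP-positive samples for each of these, and Acox2 varied most within a group. Acaa1b, a peroxisomal thiolase, was at 84.0 and 102 against 17.5 and 14.9 CPM (-2.52 ± 0.21, adjusted p = 7.67e-05, edgeR), while its close copy Acaa1a was not called. How the authors' counting treated reads that fit both of such copies, or both of the neighbours Eci2 and Eci3, is not stated. Acox3 fell by 1.84 ± 0.16 on the log2 scale, and Cat, catalase, fell by 1.43 ± 0.19. Pex11a, a peroxisome division gene, was at 17.7 and 31.1 against 9.70 and 8.81 CPM (-1.40 ± 0.31), and its call was lost without GFP-negative replicate 2 (adjusted p = 0.0660, edgeR). Hsd17b4, the other bifunctional enzyme, was at 173 and 166 against 137 and 105 CPM (-0.49 ± 0.18) and was not called in the main fit. With the replicate number as a block it was called (-0.50, adjusted p = 0.0452, edgeR). Without GFP-positive replicate 1 its log2 difference was larger, at -0.72.

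Among mitochondrial genes, Acadm was at 943 CPM in both GFP-negative samples and at 258 and 208 CPM in the GFP-positive samples (log2 difference -2.02 ± 0.20, adjusted p = 0.000136, edgeR). Acads fell by 1.62 ± 0.25, Cpt2 fell by 1.48 ± 0.20, Decr1 fell by 1.49 ± 0.18 and Hadh, a hydroxyacyl-CoA dehydrogenase for shorter chains, fell by 1.30 ± 0.16. Eci1, the mitochondrial isomerase, fell by 1.22 ± 0.25. Echs1 was at 118 and 133 against 56.6 and 75.1 CPM (-0.93 ± 0.19), and Etfb at 186 and 250 against 87.9 and 108 CPM (-1.15 ± 0.20). Eci2, whose product is also found in peroxisomes, was at 109 and 105 against 54.3 and 64.5 CPM (-0.85 ± 0.17). The calls of Echs1, Etfb and Eci2 were lost on log2(RPKM + 1) (adjusted p = 0.176, 0.0714 and 0.243, limma). Acadl was at 196 and 210 against 130 and 160 CPM (-0.48 ± 0.18) and was not called in the main fit. It was called with the block (-0.49, adjusted p = 0.0475, edgeR) and with DESeq2 (-0.50, adjusted p = 0.0418). A filter of at least 50 counts on average gave the call too (-0.51, adjusted p = 0.0480, edgeR). The medium-chain and short-chain dehydrogenase genes thus fell in this comparison, while Acadvl was not called. Cpt1a was at 387 and 361 against 440 and 329 CPM and the groups overlapped (0.04 ± 0.20). Cpt1b was at 2.88 and 2.98 against 6.91 and 4.56 CPM and was not called.

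The genes that rose in GFP-positive cells were the 4 synthetases, Hadha, Hadhb, Acaa2 and Ppargc1a. Acsl4, which prefers polyunsaturated chains, was at 45.6 and 52.5 CPM in the GFP-negative and 229 and 204 CPM in the GFP-positive samples (log2 difference 2.14 ± 0.18, adjusted p = 7.90e-05, edgeR). Acsl5 rose by 1.69 ± 0.17, with both positive samples above both negative ones. Acsl1 was at 223 and 200 against 395 and 308 CPM (0.73 ± 0.19), and Acsl3 at 45.5 and 37.4 against 82.3 and 59.2 CPM (0.77 ± 0.22). Hadha was at 180 and 175 against 244 and 271 CPM (0.54 ± 0.17), and Hadhb at 49.6 and 44.5 against 66.9 and 71.4 CPM (0.55 ± 0.18). Acaa2 was at 48.3 and 59.8 against 87.4 and 108 CPM (0.86 ± 0.19). The calls of Hadha and Hadhb were lost without any 1 of the 4 samples (adjusted p 0.0526 to 0.155 and 0.0996 to 0.198, edgeR), and those of Acsl1, Acsl3 and Acaa2 without 2 of the 4 each. Ppargc1a rose by 1.16 ± 0.19, from 291 and 339 to 662 and 750 CPM, and Ppara fell by 1.74 ± 0.17, from 143 and 163 to 47.9 and 44.0 CPM.

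**Figure D3:**
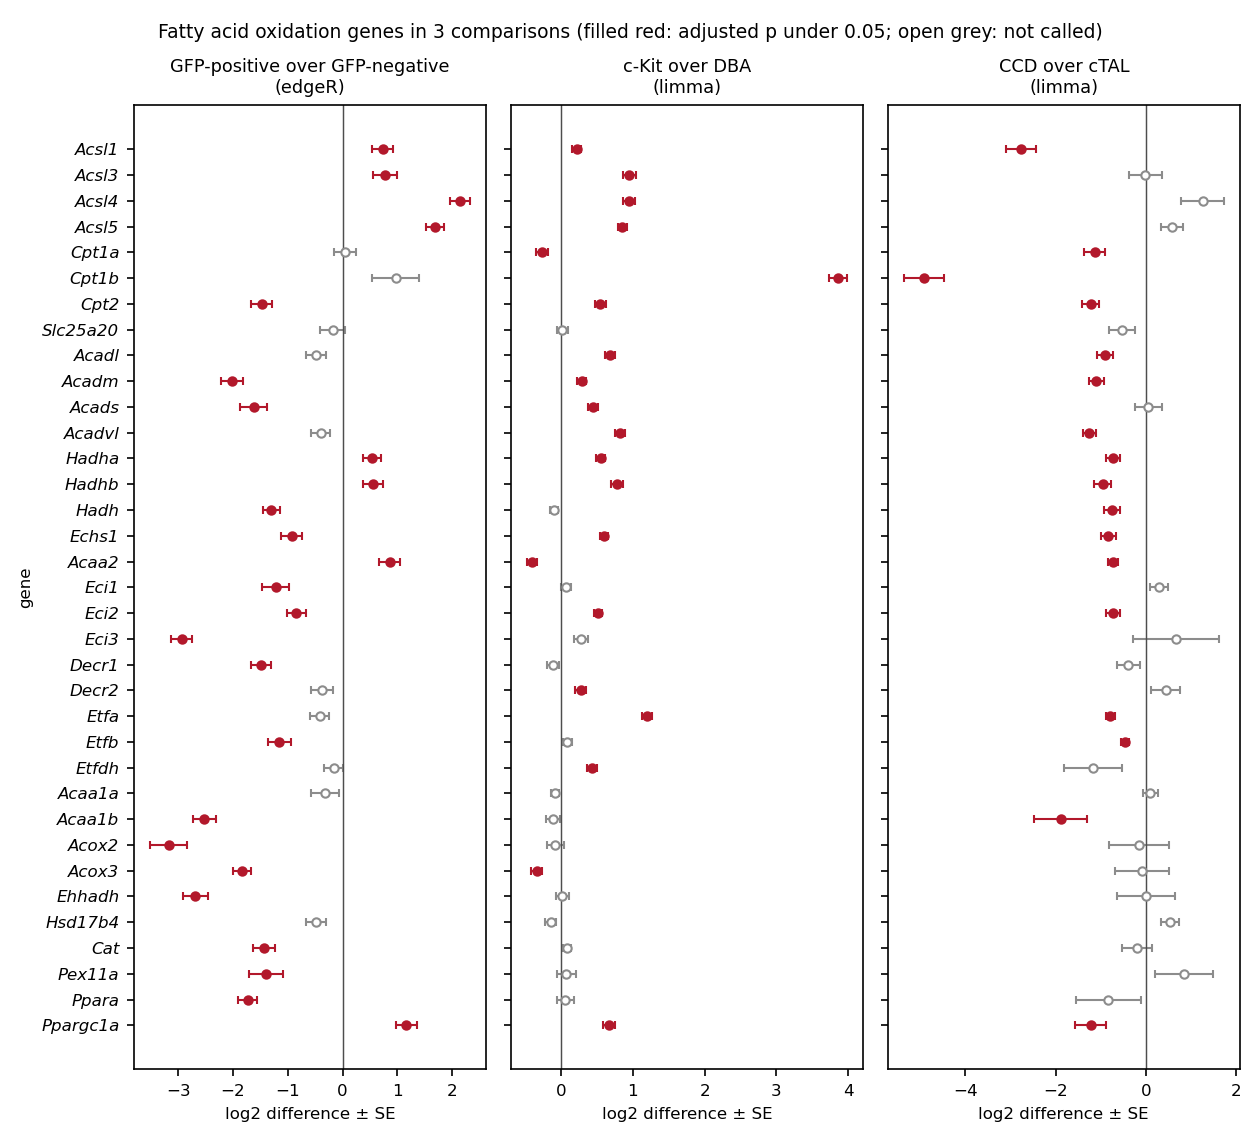
Log2 differences with standard errors for the 35 genes, ordered by role, in 3 comparisons: GFP-positive over GFP-negative (edgeR), c-Kit over DBA and CCD over cTAL (limma on log2(TPM + 1)). Filled red points are called at an adjusted p under 0.05 and open grey points are not; the 17 red points of the CCD panel all lie left of 0, and 18 of the 21 in the c-Kit panel lie right of it, on axes of different length.

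Microdissected CCD and cTAL differed in 17 of the 35 genes, and all 17 were lower in CCD (limma on log2(TPM + 1), adjusted p under 0.05). Of all 13520 genes tested 18.7% were called, 13.2% higher and 5.50% lower in CCD. The median log2 difference was -0.72 for the list and 0.31 for all genes. After quantile normalization, which brought the median of all genes to -0.03, 9.03% of all genes were higher and 9.20% lower, and 0 and 18 of the list. The 5 genes of the mitochondrial hydratase, dehydrogenase and thiolase steps were all lower, as were 3 of 4 carnitine genes, 3 of 4 acyl-CoA dehydrogenases and 2 of 3 electron transfer genes, but 1 of 4 synthetases, 1 of 5 isomerase and reductase genes and 1 of the 8 genes listed as peroxisomal. CCD and cTAL did not overlap for 9 genes, as for 5.51% of all genes. All 8 principal markers were higher in CCD and all 5 thick ascending limb markers in cTAL, and none of the 8 proximal tubule markers tested was called (limma, and 0 of them at an unadjusted p under 0.05). For the list itself, where 0 genes were called higher in CCD, 3 were higher at an unadjusted p under 0.05 (Acsl4, Acsl5 and Hsd17b4, limma). With tubules that share a number in their column names averaged first, 16 genes were lower and 0 higher, and with the tubules above 4000 TPM of proximal tubule markers left out, 17 and 0 (limma).

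Cpt1b, at chr15:89416405-89425863 on GRCm38, differed most. In CCD its lowest, median and highest values were 0, 8.31 and 18.3 TPM, and in cTAL 169, 210 and 278 TPM (log2 difference -4.92 ± 0.44, adjusted p = 8.27e-09, limma). Every cTAL was far above every CCD, and the same holds for the next gene. Acsl1, the synthetase most used in heart and fat, ran from 10.1 over 50.9 to 79.4 TPM in CCD and from 131 over 298 to 445 TPM in cTAL (-2.77 ± 0.33, adjusted p = 8.21e-07, limma). Cpt1a fell by 1.13 ± 0.24 and Cpt2 fell by 1.22 ± 0.19 on the log2 scale. Chkb, the neighbour whose gene ends 496 bases before Cpt1b on the same strand, was not called (-0.20, adjusted p = 0.751, limma).

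The dehydrogenases and the trifunctional protein separated the tubules with smaller differences. Acadvl was at 160, 270 and 367 TPM (lowest, median, highest) in CCD and 456, 660 and 769 TPM in cTAL (log2 difference -1.25 ± 0.14, adjusted p = 4.50e-07, limma). Acadm was at 155, 230 and 334 against 374, 515 and 609 TPM (-1.10 ± 0.16, adjusted p = 2.04e-05, limma). Hadhb was at 66.7, 210 and 246 against 299, 352 and 438 TPM (-0.95 ± 0.19, adjusted p = 0.000751, limma). No tubule of either kind fell into the range of the other for these genes, and the lowest Hadhb value was that of the CCD whose column is named m2_CCD2. Echs1 was at 102, 275 and 321 against 374, 430 and 481 TPM (-0.83 ± 0.17, adjusted p = 0.00107, limma). Hadha fell by 0.73 ± 0.15, Hadh by 0.75 ± 0.18, Acaa2 by 0.72 ± 0.11 and Acadl by 0.91 ± 0.17. Hadha and Acaa2 did not overlap between CCD and cTAL, while Hadh and Acadl did.

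**Figure D4:**
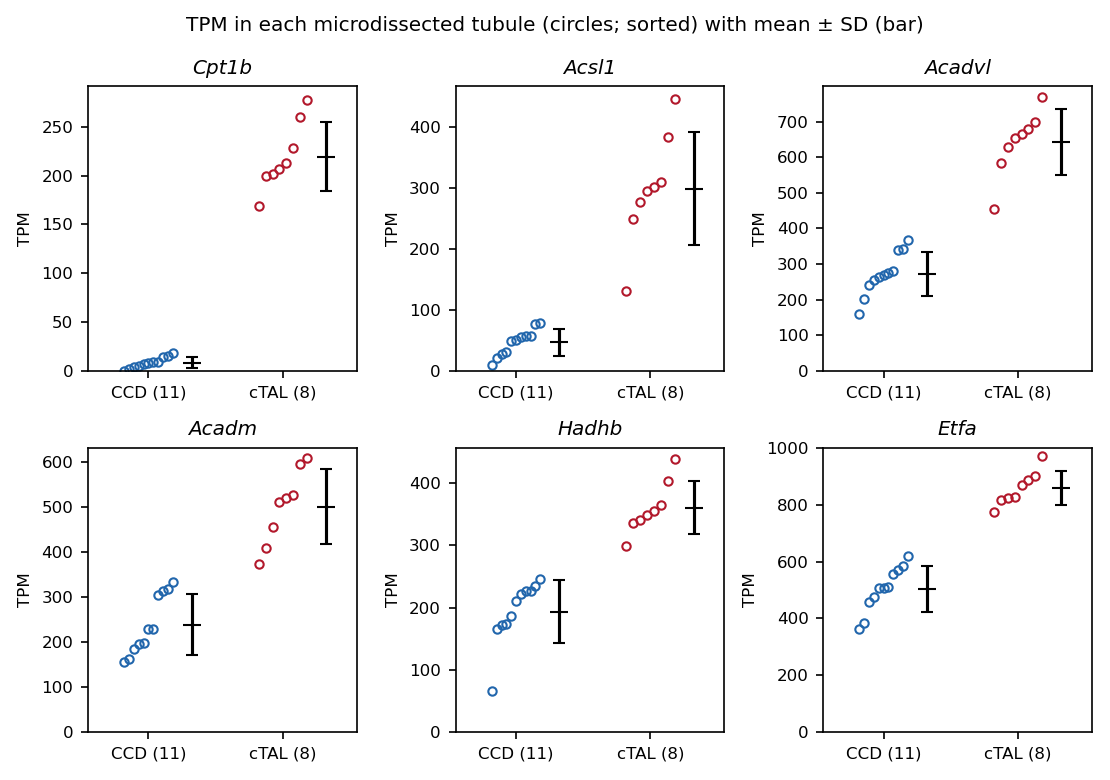
TPM of 6 genes in each of 11 CCD and 8 cTAL tubules (circles, sorted by value), with the mean ± SD of each group as a black bar; all axes start at 0. The CCD and cTAL circles do not overlap in any panel, and Cpt1b and Acsl1 show the widest separation.

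Etfa was lower in CCD, at 365, 506 and 620 against 775, 848 and 970 TPM, a log2 difference of -0.78 ± 0.10. Etfb was at 839, 1033 and 1222 against 1166, 1419 and 1915 TPM (-0.46 ± 0.09), with overlap. Etfdh was at 0.64, 135 and 202 against 172, 198 and 282 TPM and was not called (-1.17 ± 0.64). Its lowest value was in m2_CCD2, and without that tubule Etfdh was called (-0.59, adjusted p = 0.0285, limma). The same tubule also had the lowest CCD values of Hadhb, Echs1, Cat and Acadvl and the highest of Acadl, Acsl1 and Acaa2. Ppargc1a was lower in CCD by 1.22 ± 0.35 on the log2 scale, with medians of 97.5 and 194 TPM.

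Among the other synthetases, Acsl4 was at 8.04, 31.3 and 65.2 TPM in CCD and 2.91, 8.11 and 41.2 TPM in cTAL and missed the threshold (log2 difference 1.26 ± 0.47, adjusted p = 0.0652, limma). It was called without m1_cTAL1, the highest cTAL (1.54, adjusted p = 0.0181, limma), and without m3_CCD1 or m6_CCD1 (adjusted p = 0.0423 and 0.0361, limma), and with the m number as a replicate block (1.23, adjusted p = 0.0231, limma). Acsl5 was at 91.0, 181 and 212 against 34.3, 128 and 156 TPM (0.58 ± 0.24) and was not called. Slc25a20 was at 33.8, 64.3 and 101 against 24.6, 109 and 135 TPM (-0.53 ± 0.29), and was called without m3_cTAL1, the lowest cTAL (-0.78, adjusted p = 0.0168, limma).

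Of the 8 genes listed as peroxisomal 1, Acaa1b, was called in the tubules. Eci2, listed with the isomerases but also found in peroxisomes, was lower in CCD too (log2 difference -0.72 ± 0.16, adjusted p = 0.00199, limma). Acaa1b was lower in CCD (0.36, 5.39 and 53.4 against 13.4, 29.9 and 47.2 TPM, log2 difference -1.89 ± 0.59, adjusted p = 0.0269, limma). Its highest CCD value was in m4_CCD1, and its call was lost without m7_cTAL1 (adjusted p = 0.0541, limma). The call was also lost with the m number of the columns as a replicate block (adjusted p = 0.0520, limma), with tubules averaged within that number (0.0963), without the filter on low values (0.0683) and with sample weights (0.0961). Hsd17b4 was at 97.1, 176 and 280 against 89.5, 102 and 179 TPM (0.54 ± 0.20, adjusted p = 0.0639, limma). It was called without m2_CCD2, m3_CCD1 or m3_cTAL1 (adjusted p 0.0239 to 0.0276, limma). Acox2 was under 1 TPM in 7 of 11 CCD and 4 of 8 cTAL, and Eci3 in 4 of 11 and 4 of 8. The highest values of both in CCD, 16.7 and 67.6 TPM, were in m4_CCD1, which also had the highest sum of proximal tubule markers, 11256 TPM against a CCD median of 2010 TPM, most of it from Kap (10652 TPM). Eci3 itself was not called (0.67 ± 0.95) and turned to -0.68 with that sum as a covariate. The part of these markers in the values of both genes was not tested.

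The 2 forms of carnitine palmitoyltransferase 1 were also set side by side within samples, on the TPM scale, which allows levels of 2 genes to be compared. Cpt1b made up 36.6% and 40.9% of the summed Cpt1a and Cpt1b in the c-Kit samples and 2.62% and 3.31% in the DBA samples. Among tubules the share ran from 0% to 11.7% with a median of 5.77% in CCD, and from 38.6% to 51.0% with a median of 47.9% in cTAL. In the GFP samples the RPKM scale was used (reads scaled for gene length and library total). The share there was 0% and 0.445% in GFP-negative and 4.11% and 2.18% in GFP-positive cells. The count table goes against the 0 behind the first of these, with 123 and 102 Cpt1b reads in the GFP-negative and 257 and 173 in the GFP-positive samples, a smaller gap than on the RPKM scale, and Cpt1b was not called there. The TPM tables and the RPKM table were normalized separately, so no test was made across them.

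**Figure D5:**
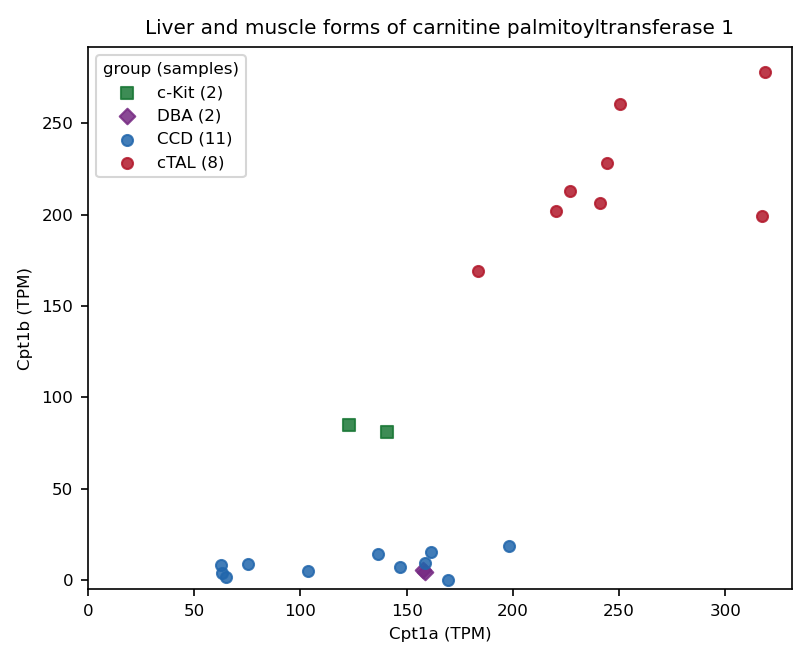
Cpt1b against Cpt1a, both in TPM, in each c-Kit (green squares), DBA (purple diamonds), CCD (blue circles) and cTAL sample (red circles). CCD and DBA samples lie along the bottom with Cpt1b under 20 TPM, the c-Kit samples lie above 80 TPM, and all cTAL samples lie above 160 TPM; 7 of the 8 cTAL have more Cpt1a than any CCD, and m6_cTAL1, at 184 TPM, lies below m1_CCD1, at 198 TPM.

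Of the 18 genes higher in c-Kit than in DBA samples, 12 were also among the 17 lower in CCD than in cTAL: Acsl1, Cpt1b, Cpt2, Acadl, Acadm, Acadvl, Hadha, Hadhb, Echs1, Eci2, Etfa and Ppargc1a. Over 12415 genes tested in both comparisons, 2.17% showed both calls, and the comparisons share no samples. This pattern was picked after the values were seen and was not tested. Cpt1a and Acaa2 were lower in c-Kit than in DBA and also lower in CCD than in cTAL.

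A list of 45 other genes of the pathway (further acyl-CoA dehydrogenases and thioesterases, fatty acid transporters and binding proteins, ketone body enzymes and regulators) was counted in the same fits. In CCD against cTAL, 41 were tested, 6 were higher and 8 lower, where 13.2% and 5.50% of all genes tested were. Fabp3, the heart-type fatty acid binding protein, averaged 20.1 ± 10.5 TPM (SD, n = 11) in CCD and 868 ± 160 TPM (SD, n = 8) in cTAL, a log2 difference of -5.57 (adjusted p = 6.01e-12, limma). Bdh1, a ketone body dehydrogenase, fell by 2.75, Acadsb, which acts on branched short chains, fell by 2.10, Acat1, a thiolase of ketone metabolism, fell by 1.45, and Phyh, which starts phytanic acid breakdown, fell by 0.75. These 5, picked as the largest called differences without overlap, were all lower in CCD, but the 45 genes held calls in both directions. In c-Kit against DBA, 42 were tested, 11 were higher and 13 lower, where 16.1% and 28.1% of all genes tested were. Acacb, the acetyl-CoA carboxylase whose product inhibits carnitine palmitoyltransferase 1, rose by 1.86 and Ppargc1b, a relative of Ppargc1a, by 1.54. Angptl4, a lipoprotein lipase inhibitor, fell by 1.60, Pparg fell by 1.36 and Cpt1c, the brain form, fell by 1.23 from 2.92 TPM. In GFP-positive against GFP-negative cells, 44 were tested, 5 were higher and 26 lower, where 15.2% and 17.3% of all genes tested were. Angptl4 fell by 3.12, Cd36, a fatty acid transporter, fell by 2.75, Acot12, a thioesterase, fell by 2.75 and Pparg, a nuclear receptor, fell by 2.73. Acsl6, a brain-rich synthetase, was at a mean of 4.21 CPM in GFP-positive and 0.0469 CPM in GFP-negative cells and rose.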

How the data were processed

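RNA of single cells, sorted bulk cells and dissected tubules was analysed from deposited tables, without going back to reads. The members and all lists were chosen with earlier results of these data known. The deposited TPM values (235 single cells, 4 c-Kit and DBA samples, 19 tubules) sum to a fixed total in each sample; the unit of the tubule table was read from those sums. The submitters' processing notes name STAR 2.5.1b, RSEM 1.2.31, Seurat and GRCm38.p5, with no role stated. Read counts per gene of the GFP samples were made with HTSeq-count by the authors, per the file names, and reads in no gene (66.7% to 72.9% per sample) stayed out. The deposited RPKM values of the GFP samples, scaled by the authors for gene length and library total, were used as an alternative and for the share of Cpt1b. The strand setting was not found in any source, so overlapping genes are uncertain.

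Counts were compared with edgeR 4.0.16 (TMM, filterByExpr, quasi-likelihood F test) in R 4.3.3, and TPM with limma 3.58.1 on log2(TPM + 1), with a variance trend, for genes averaging 1 TPM or more. Only the 2 groups compared entered a fit, without covariates. P-values were adjusted over all genes (Benjamini-Hochberg) and called under 0.05; both fits were tested on simulated data. A log2 difference after adding 1 understates changes of low genes. Single-cell types are the authors' own; each is 1 sample, no doublet caller was run on TPM values, and intervals (Python 3.11.15, scipy 1.17.1) cover counting error only. No 2 cells held identical values.

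Samples were grouped by titles and columns by their names; single-cell and tubule columns were tied to groups, not to single titles. The number of per-sample columns not used was 0. Members given sample by sample are the 6 with the largest called differences without overlap and those whose call changed with the processing; of the 45 other pathway genes, the 5 largest called differences are named. The column headers of the RPKM table name a first and a second experiment, while the count columns carry only a replicate number. Within-group differences of counts and RPKM values taken in order correlated across genes (r = 0.49 in GFP-negative, 0.47 in GFP-positive samples). Count samples of the same number deviated together (r = 0.14), and the other pairing has the same value with a minus sign by construction. Blocked values therefore stand beside the GFP calls that they change. Gene positions are from GENCODE on GRCm38 and sequences from RefSeq; of 35 genes, 31 had a promoter. Alternatives were DESeq2 1.42.0, other size factors, filters, pseudocounts of 0.1 and 5, quantile normalization, no trend, sample weights, the proximal tubule marker sum as covariate, blocks, RPKM, and leaving out each sample; 4 more were added after seeing the data.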

Additional observations from a re-analysis of the deposited data

Results flagged for a closer look

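In 3 of the 35 genes, 1 of the 8 cTAL lay far from the others (Dixon's ratio above the 95% critical value of 0.526 for 8 samples; chance gives about 1 such group in 20). Acsl4 was at 41.16 TPM in m1_cTAL1, and the next highest cTAL was at 20.5 TPM. Acsl5 was at 34.28 TPM in m3_cTAL1, and the next lowest was at 101 TPM. Hsd17b4 was at 178.57 TPM in the same m3_cTAL1, and the next highest was at 123 TPM.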

How the results depend on the processing

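Of the 35 genes, 21 kept direction and call under every alternative run for the GFP comparison, 21 for c-Kit against DBA and 20 for CCD against cTAL. With limma on log2(RPKM + 1), 3 genes were higher and 13 lower in GFP-positive cells, Cpt1a turned to -0.062, and 1639 instead of 5101 of all genes were called. Leaving out 1 GFP sample gave 4 to 5 higher and 16 to 18 lower genes, with Cpt1a from -0.21 to 0.24. With the replicate block the GFP counts were 8 and 19, and no other GFP call of the list changed with it. For c-Kit against DBA, 1 gene was lower without a variance trend, and leaving out 1 sample gave 1 to 2 lower genes. Those samples share a number only (r = 0.03), and with the replicate block 19 genes were higher and 3 lower.

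In the tubules, 1 gene was higher in CCD with only genes averaging 10 TPM or more, 3 with sample weights (4401 instead of 2526 of all genes called), 1 with the m number as a replicate block, and 0 to 2 when 1 tubule was left out. Of 14 pairs of CCD and cTAL with the same m number, 3 had correlated deviations above 0.1 (r from -0.01 to 0.22). Some pairs with different m numbers reached similar values, such as m4_CCD1 with m7_cTAL1 (r = 0.22) and with m7_cTAL2 (r = 0.20). Eci3 was at -0.68 with the proximal tubule marker sum as a covariate. Etfb lost its call without a variance trend. The cause of these changes was not tested.

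In single cells, means of log2(TPM + 1) put 8 genes past 2-fold lower in proximal tubule cells, 6 higher and 0 lower in type A than in principal cells, and 6 higher and 4 lower in type B than in type A cells. Medians gave 1 gene lower in type A than principal and 6 higher in type B than type A cells. Means without the highest cell of each type gave 1 higher and 12 lower in type B than type A cells. Depth in TPM samples is unknown, so genes near 0 cannot be given a detection limit.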
